A study of Mus musculus with 12 samples.

Results

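Hair follicle stem cells (HFSCs) of mice lacking Col17a1 were compared 3 days after their hair had been plucked with the same cells of mice left unplucked. The comparison rests on 2 of the 12 arrays of the series, 1 on each side, so it has no replicate and carries no test. Of 34763 gene names on the array, 24017 were kept because their probe was well above background on the plucked array, the unplucked array or both.

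The Col17a1 cKO mice were 12 weeks old, and had received tamoxifen by intraperitoneal injection at 2 mg per mouse for 5 days. The labels place the deletion under the K14 promoter, which is active in basal keratinocytes, and give no strain for these mice. Their plucked and unplucked HFSCs were set beside 3 other plucking pairs, each of 1 plucked and 1 unplucked array: tamoxifen-injected wild-type mice of 12 weeks (the controls), young wild-type mice of 8 weeks and aged wild-type mice of at least 22 months, all 3 labelled C57BL/6. HFSCs were sorted by FACS as CD34-high, ITGA6-high and Sca1-negative cells, and hair was plucked by hand. All levels below are log2 intensities relative to the 75th percentile of the same array, so 0 is the level of a fairly bright probe, and a difference is the plucked level minus the unplucked level.

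COL17A1 spans the cell membrane at hemidesmosomes, the junctions that anchor basal keratinocytes and HFSCs to the basement membrane. HFSCs rest in the bulge of the follicle, where BMP signalling holds them quiescent. Plucking a resting hair starts a new growth phase, in which stem cells and their hair germ progeny receive Wnt and Shh signals, leave quiescence and divide.

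In the plucked Col17a1 cKO cells, genes of mitosis and DNA replication stood far above their unplucked levels, and the BMP target genes Id1, Id2, Id3 and Smad7, bulge surface genes such as Cd34 and most collagen and matrix genes past 2-fold stood below them. The bulge transcription factor genes Sox9 and Lhx2 and the basal keratin gene Krt14 stood within 1.15-fold of their unplucked levels. Of all 24017 kept genes, 5349 (22.3%) were at least 2-fold higher and 4120 (17.2%) at least 2-fold lower on the plucked array, with a median difference of 0.04. Among the 18064 genes well above background on both cKO arrays, 2531 (14.0%) were at least 2-fold higher and 3029 (16.8%) at least 2-fold lower, with a median of -0.09. Each count of named genes below is to be read against these shares.

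**Figure D1:**
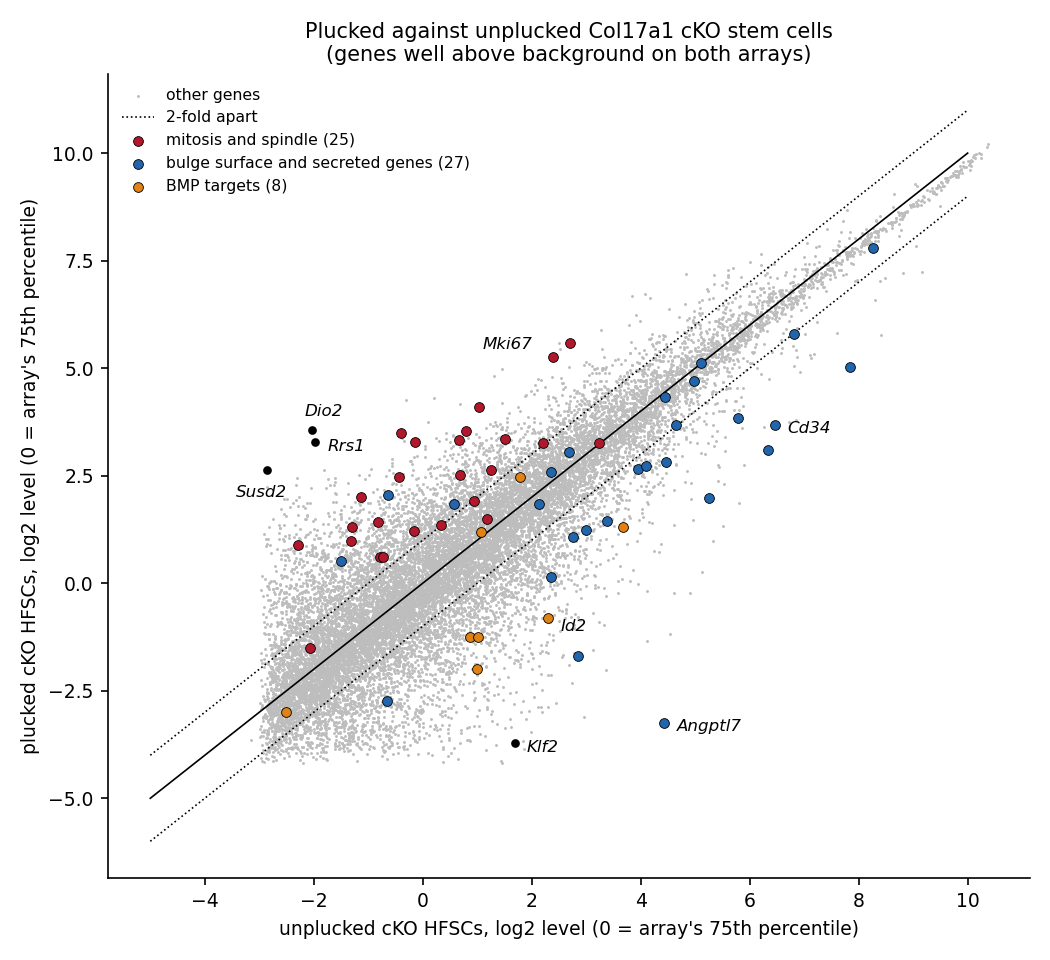
Each point is 1 gene well above background on both cKO arrays, with its level on the plucked array (y axis) against its level on the unplucked array (x axis), both as log2 relative to the array's 75th percentile. Genes of mitosis lie mostly above the line of equal levels, and bulge surface genes and BMP targets mostly below it.

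The arrays of the cKO pair differed in how much they detected. On the plucked cKO array 61.3% of spots were well above background, against 49.7% on the unplucked cKO array, which was the lowest share of the 12 arrays (highest 65.0%). The lowest level called well above background was -4.24 on the plucked and -3.00 on the unplucked cKO array, and 4876 genes were bright on the plucked array only, against 1077 on the unplucked array only. For a gene that was not well above background on 1 of the arrays, the fold is therefore given as "at least", with the bright array set against the lowest level that the dim array called well above background, or against the dim probe's own level where that was higher. With these bounds 3690 genes (15.4%) were at least 2-fold higher and 4106 (17.1%) at least 2-fold lower. Both cKO arrays lay on the same slide as the control pair, and the young and aged pairs lay on the other. In whole-population RNA, fewer cells of a type and less RNA per cell cannot be told apart.

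The targeted gene and the gate were read first. Col17a1 had a level of 5.79 in plucked and 7.01 in unplucked cKO cells, against 6.22 and 7.31 in plucked and unplucked controls. Its probe (mm9, chr19:47720894-47720953, minus strand) was thus bright in cKO and control cells alike. The labels do not place it inside or outside the deleted part of the gene, and its level does not check the deletion. Col17a1 was 2.33-fold lower on the plucked than on the unplucked cKO array. Cd34, which encodes the surface protein of the gate, was bright on all 8 HFSC arrays. Ly6a, which encodes Sca1, was at -3.65 in plucked cKO cells and not well above background in unplucked cKO cells.

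Genes of mitosis and chromosome segregation formed the group with the highest median. Of 36 such genes, all kept, 31 were at least 2-fold higher in plucked cKO cells, against 22.3% of all genes, and 1, Cenpf, was at least 4.90-fold lower. Their median difference was 2.80. Of the 25 that were well above background on both cKO arrays, 21 were at least 2-fold higher and 0 at least 2-fold lower, with a median of 2.24.

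Mki67, a nuclear marker of cycling cells, had a level of 5.26 in plucked and 2.39 in unplucked cKO cells, a 7.28-fold difference. In the other pairs Mki67 stood at 5.41 and 2.15 in plucked and unplucked controls, at 5.10 and 0.45 in young mice and at 4.19 and -0.28 in aged mice. All 4 plucked arrays thus lay above all 4 unplucked ones. Ccnb1, the B-type cyclin that drives entry into mitosis, was 10.7-fold higher in plucked cKO cells (3.28 against -0.14). Cdk1, its kinase partner, reached 1.98 in plucked cKO cells and was not well above background in unplucked ones, a difference of at least 25.8-fold. Top2a, the topoisomerase that untangles sister chromatids, reached 0.66 in plucked cKO cells and was at least 9.98-fold higher there.

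Of the 36 genes, 10 were well above background in plucked cKO cells and not in unplucked ones, several of them genes of the spindle and kinetochore. Tpx2, which promotes spindle assembly, was at least 30.7-fold higher in plucked cKO cells, although a second probe of the gene differed by -1.88. Spc24, a subunit of the kinetochore NDC80 complex, was at least 25.5-fold higher, and the checkpoint kinase genes Bub1 and Bub1b at least 19.9-fold and 16.4-fold higher. Zwilch, a gene outside the list whose product helps recruit dynein to the kinetochore, was at least 39.0-fold higher. Cenpf, a protein of the outer kinetochore, went the other way, with 1 probe bright in unplucked cKO cells (-1.75) and not well above background in plucked ones.

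The promoters of 4 of these genes are shown because their products mark or drive the division cycle. Some sequence elements also stood upstream of gene starts more often in this list than over all promoters, although not in every member. Each run is the 250 bases before the gene start, from RefSeq on GRCm38.p6, minus strand, 5′ to 3′. Capitals mark the CHR element (TTTGAA) and the CCAAT box (CCAAT), searched on both strands, with no overlap between matches in these 4 promoters. The windows are chr7:135716380-135716629 for Mki67, chr11:99024190-99024439 for Top2a, chr10:69352913-69353162 for Cdk1 and chr13:100786487-100786736 for Ccnb1.
Mki67: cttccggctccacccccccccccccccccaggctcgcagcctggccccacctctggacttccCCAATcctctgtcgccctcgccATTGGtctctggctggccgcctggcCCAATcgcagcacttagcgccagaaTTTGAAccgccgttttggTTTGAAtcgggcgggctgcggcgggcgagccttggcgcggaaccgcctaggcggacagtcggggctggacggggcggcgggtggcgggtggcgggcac
Top2a: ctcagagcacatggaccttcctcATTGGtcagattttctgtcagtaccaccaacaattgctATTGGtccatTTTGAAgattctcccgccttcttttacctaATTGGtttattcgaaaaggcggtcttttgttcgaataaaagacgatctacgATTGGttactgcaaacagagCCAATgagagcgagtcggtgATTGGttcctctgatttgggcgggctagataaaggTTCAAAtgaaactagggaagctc
Cdk1: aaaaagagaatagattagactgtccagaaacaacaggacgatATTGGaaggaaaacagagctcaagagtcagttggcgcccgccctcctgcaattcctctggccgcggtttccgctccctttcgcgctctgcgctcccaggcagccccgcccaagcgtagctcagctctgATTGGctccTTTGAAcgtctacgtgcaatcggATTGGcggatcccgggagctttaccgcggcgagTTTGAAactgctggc
Ccnb1: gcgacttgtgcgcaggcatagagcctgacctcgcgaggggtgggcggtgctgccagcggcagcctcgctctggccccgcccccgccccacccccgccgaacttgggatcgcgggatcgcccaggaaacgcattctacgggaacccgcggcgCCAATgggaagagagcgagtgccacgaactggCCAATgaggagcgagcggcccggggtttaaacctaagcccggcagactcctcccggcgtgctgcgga

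The Mki67 window held 2 CHR elements and 3 CCAAT boxes, the Top2a window 2 and 6, the Cdk1 window 2 and 3, and the Ccnb1 window 0 and 2. Over the mitosis list, for which 32 promoters of 30 genes were found, 25 windows (78.1%) held a CCAAT box, against 33.8% of all 32851 promoters. A CHR element stood in 11 of the 32 windows (34.4%), against 16.0% of all promoters, and both elements in 10 (31.2%), against 5.55%. The E2F motifs searched (TTTCCCGC and TTTGGCGC, both strands) stood in 0 of the 32 windows, and in 1.30% of all promoters. For the DNA replication list the shares ran differently: 6 of 32 windows (18.8%) held an E2F motif, 4 (12.5%) a CHR element and 20 (62.5%) a CCAAT box. The BMP target list, which stood lower after plucking, had only 7 windows. Of these 3 (42.9%) held a CHR element, 4 (57.1%) a CCAAT box, 1 (14.3%) both and 0 an E2F motif. The CHR share of the BMP target list also lay above the 16.0% of all promoters, and that of the replication list lay below it. With only 7 BMP windows, whether a raised CHR share was particular to the mitosis list cannot be told. These are matches of letters in a window, not measured binding.

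**Figure D2:**
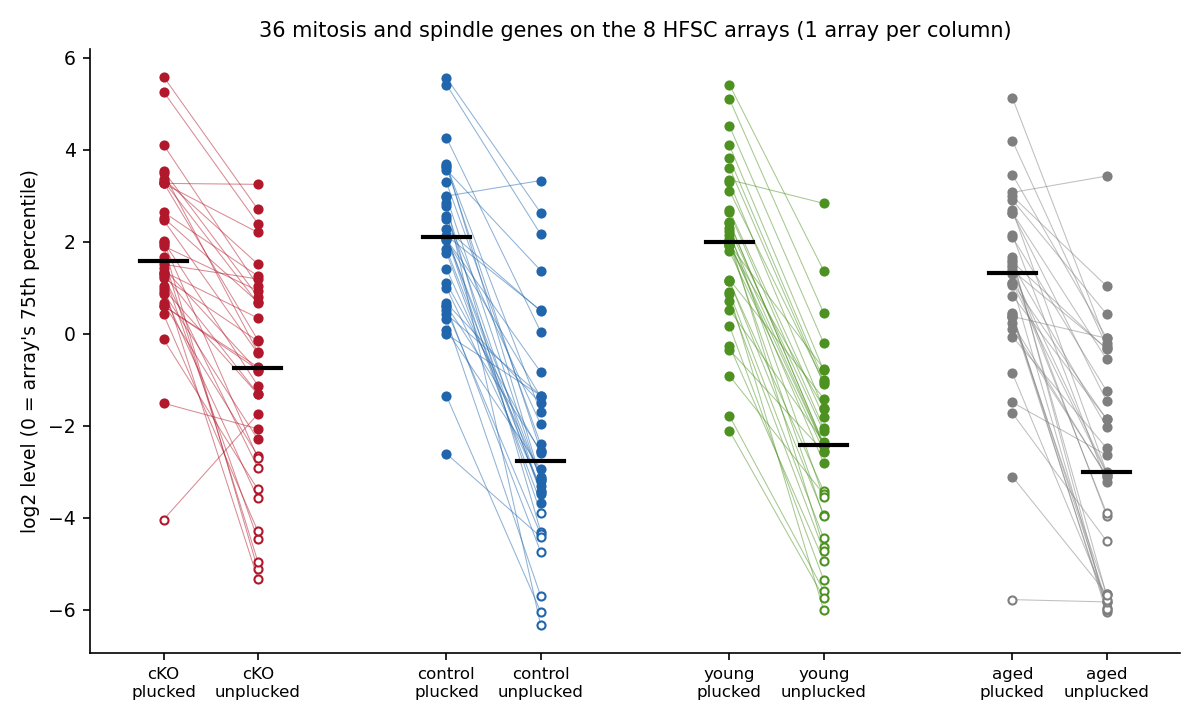
Level of each of the 36 mitosis genes (points) on the 8 HFSC arrays, as log2 relative to the array's 75th percentile, with the plucked array left of the unplucked array of each mouse type. Open points were not well above background and black bars are medians, which were 1.59 and -0.76 in plucked and unplucked cKO cells.

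The unplucked end of this group set the cKO pair apart by value. The median level of the 36 genes was 1.59 in plucked cKO cells, between the 1.31 of aged and the 2.10 of control plucked cells, with young plucked cells at 1.98. In unplucked cells the median was -0.76 in cKO mice, against -2.77 in controls, -2.43 in young mice and -3.02 in aged mice. Of the 16 genes well above background on all 4 unplucked arrays, the cKO array was the highest of the 4 for 12, against 25.1% of all 16929 such genes. Of the 35 mitosis genes well above background on all 4 plucked arrays, the cKO array was highest for 9 (25.7%), against 28.4% of all such genes. The median plucking difference of the list was accordingly 2.80 in cKO mice, against 4.50 in controls, 4.66 in young mice and 3.55 in aged mice.

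Some members with a narrow gap in the cKO pair are given as examples, chosen after their values were seen. A narrow gap beside a high plucked level brings a high unplucked level with it, so they add no separate support. Aurka, a spindle pole kinase, was at 2.64 in plucked and 1.25 in unplucked cKO cells, against 2.50 and -1.98 in plucked and unplucked controls. Ndc80, the kinetochore subunit that binds microtubules, was at 1.35 and 0.34 in plucked and unplucked cKO cells, against 2.10 and -3.17 in controls. Hmmr, a spindle-associated protein, was at 3.26 and 3.24 in the cKO pair. For Aurka the plucked cKO level lay near that of plucked controls, and for Ndc80 it lay below that of plucked controls. In a limma fit with a term for the cKO plucking difference minus that of the other 3 pairs, the median estimate over the 36 genes was -1.86, and 12 of 36 had an unadjusted p under 0.05, where 8.15% of all genes did. No gene of the 25428 tested passed an adjusted p of 0.05 for this term, the smallest being 0.458, while 2072 had an unadjusted p under 0.05. With so few arrays, missing the threshold does not show that the cKO pair responded like the others.

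The plucking difference common to the 4 pairs could be tested, with limma on the 8 HFSC arrays and a term for mouse type. In that fit 100 of 25428 rose (0.393%) and 27 fell (0.106%) at an adjusted p of 0.05. Of the 36 mitosis genes 6 rose. Among them, Mki67 rose by 3.81 ± 0.40 (SE, 4 pairs; limma adjusted p = 0.045), Tpx2 by 5.78 ± 0.62 and Spc24 by 6.03 ± 0.50. The others that rose were Bub1, Nuf2, a partner of Ndc80, and Ect2, a regulator of cytokinesis, with estimates from 4.60 to 5.46. Zwilch, which is outside the list, rose by 4.43 ± 0.46. The cKO pair is 1 of the 4 in this fit, and with any 1 pair left out no gene passed, although 3505 to 3663 genes then had an unadjusted p under 0.05.

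DNA replication genes followed the same direction. Of 34 kept genes 27 were at least 2-fold higher in plucked cKO cells and 1 at least 2-fold lower, with a median difference of 1.82. Of the 29 bright on both arrays, 22 were higher and 1 lower. Orc1, the largest subunit of the origin recognition complex, reached 0.18 in plucked cKO cells and was at least 9.09-fold higher there. Gins1, part of the replicative helicase, was at least 13.3-fold higher, and Mcm2, another helicase subunit, was 9.48-fold higher (1.14 against -2.11). Wdhd1, which links the helicase to DNA polymerase, was at 2.63 in plucked and -1.81 in unplucked cKO cells. Wdhd1, which is not one of the 34 genes of the list, stood among the 10 highest differences of all named genes bright on both arrays and rose over the 4 pairs by 3.45 (limma adjusted p = 0.0493).

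The member that stood lower was Rfc3, a subunit of the clamp loader, at 0.41 in plucked and 1.51 in unplucked cKO cells. In each of the other 3 pairs Rfc3 was higher in the plucked cells, with levels of 1.21 to 1.58 against 0.00 to 0.30. As with mitosis, the unplucked cKO array was often the highest of the 4, for 15 of the 28 replication genes bright on all of them (53.6%, against 25.1% of all genes). Over the 4 pairs 2 of the 34 genes of the list rose, Orc1 by 5.59 ± 0.26 (SE; limma adjusted p = 0.0398) and Mcm10, which loads the replication machinery, by 4.50 ± 0.47 (limma adjusted p = 0.045).

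Regulators of the entry into S phase were less uniform. Of 18 genes of the G1 list 7 were at least 2-fold higher and 2 at least 2-fold lower in plucked cKO cells. E2f8, a late E2F repressor, was at least 14.1-fold higher, and E2f3, an activator of S phase genes, 13.0-fold higher. Mycn, a MYC family factor, was at 5.90 in plucked and 3.27 in unplucked cKO cells, and its plucked levels of 5.33 to 6.08 lay above its unplucked levels of 2.62 to 3.27 in all 4 mouse types. Mycn rose over the 4 pairs by 2.70 ± 0.22 (SE; limma adjusted p = 0.045). Myc was 2.26-fold lower in plucked cKO cells (0.21 against 1.39). Ccne1, the cyclin of S phase entry, was at -0.93 in plucked and 0.67 in unplucked cKO cells.

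The cyclin-dependent kinase inhibitors split. Cdkn1a, which encodes p21, was at 0.17 in plucked and -1.59 in unplucked cKO cells, a 3.39-fold difference. Cdkn2c, which encodes p18, was 3.05-fold higher in plucked cKO cells. Cdkn1b, which encodes p27, was 2.31-fold lower (3.82 against 5.02).

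Genes of homologous recombination and the DNA damage checkpoint, many of which are also expressed in S phase, were mostly higher. Of 20 genes 12 were at least 2-fold higher and 1 at least 2-fold lower in plucked cKO cells, with a median of 1.15. Brip1, a helicase that works with BRCA1, was at 1.92 in plucked and -2.32 in unplucked cKO cells, a 19.0-fold difference. Brca1, which acts in the repair of double-strand breaks, was at least 5.45-fold higher. Both rose over the 4 pairs, Brip1 by 5.68 ± 0.45 (SE; limma adjusted p = 0.0443) and Brca1 by 4.04 ± 0.40 (SE; limma adjusted p = 0.045). Chek2, a checkpoint kinase, stood apart at -2.08 in plucked and -0.30 in unplucked cKO cells, while its plucked level was the higher one in the other 3 pairs.

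Of 17 kept p53 target genes 7 were at least 2-fold higher and 3 at least 2-fold lower in plucked cKO cells, with a median of 0.26. Gadd45a, a stress-induced cell cycle gene, was 9.05-fold higher, and Sesn2, a stress-induced regulator of mTORC1, 8.73-fold higher. Aen, a p53-induced nuclease, was 5.49-fold higher. Eda2r, a receptor of the TNF family, was at least 5.96-fold lower.

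In the bulge, surface and matrix genes stood lower after plucking in cKO cells while most transcription factors did not. Of 28 bulge surface and secreted genes 17 were at least 2-fold lower (17.2% of all genes were) and 3 at least 2-fold higher, with a median of -1.51. Of the 27 bright on both arrays 16 were lower and 3 higher. Of 15 bulge transcription factor genes 2 were at least 2-fold lower and 3 at least 2-fold higher, with a median of -0.14. The median over the surface list was -0.88 in controls, -1.52 in young mice and -0.74 in aged mice.

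Cd34, the stem cell sialomucin used in the gate, was at 3.68 in plucked and 6.47 in unplucked cKO cells, a 6.88-fold difference (probe on mm9, chr1:196787392-196787451, plus strand). In the other pairs Cd34 was at 4.39 and 6.69 in plucked and unplucked controls, at 3.62 and 6.46 in young mice and at 3.93 and 5.62 in aged mice. The plucked and unplucked groups did not overlap, but the limma estimate over the 4 pairs, -2.40 ± 0.30 (SE), missed the threshold (adjusted p = 0.0558). Angptl7, a secreted angiopoietin-like protein, had the lowest difference of all named genes bright on both cKO arrays. Its level was -3.25 in plucked and 4.44 in unplucked cKO cells, which is 206-fold lower after plucking (probe on mm9, chr4:147869984-147870043, minus strand). In the other pairs Angptl7 was also lower after plucking, at -0.24, 0.84 and 1.17 in plucked control, young and aged cells against 5.12, 4.95 and 4.31 in their unplucked cells.

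Ltbp2, which binds latent TGF-beta in the matrix, was 9.74-fold lower in plucked cKO cells (1.97 against 5.26). Fgf18, a growth factor made by resting bulge cells that prolongs quiescence, was 23.3-fold lower (-1.70 against 2.84). Ccn2, a matricellular protein also called CTGF, was 7.03-fold lower (5.03 against 7.85) and fell over the 4 pairs by 2.58 ± 0.29 (SE; limma adjusted p = 0.0485). Wif1, a secreted Wnt inhibitor, was at least 58.7-fold lower and not well above background in plucked cKO cells. The 3 members that stood higher were Egr2 (6.49-fold), Tnc (4.02-fold, with another probe at -0.83) and Itgb6 (2.42-fold).

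The keratin and receptor markers that define HFSCs differed less than these. Krt15, the bulge keratin gene, was at 5.79 in plucked and 6.81 in unplucked cKO cells, a 2.03-fold difference. Lgr5, a receptor for R-spondins, was at 4.71 and 4.97, and Itga6, the integrin of the gate, at 4.32 and 4.44 in plucked and unplucked cKO cells. Sox9, required for bulge identity, was at 5.50 and 5.62, and Lhx2, another bulge factor, at 6.25 and 6.45. Nfatc1, which holds bulge cells quiescent, was at 5.23 and 5.64. Tcf7l1, a TCF repressor of the resting bulge, was at 0.02 in plucked cKO cells and not well above background in unplucked ones (at least 8.13-fold higher). All 15 transcription factor genes, Tcf7l1 among them, were well above background on the unplucked control, young and aged arrays. For Tcf7l1 the unplucked cKO array was thus the dim one. Foxp1 was 4.98-fold lower by its brightest probe, but its other probes ranged from -2.29 to 1.00.

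**Figure D3:**
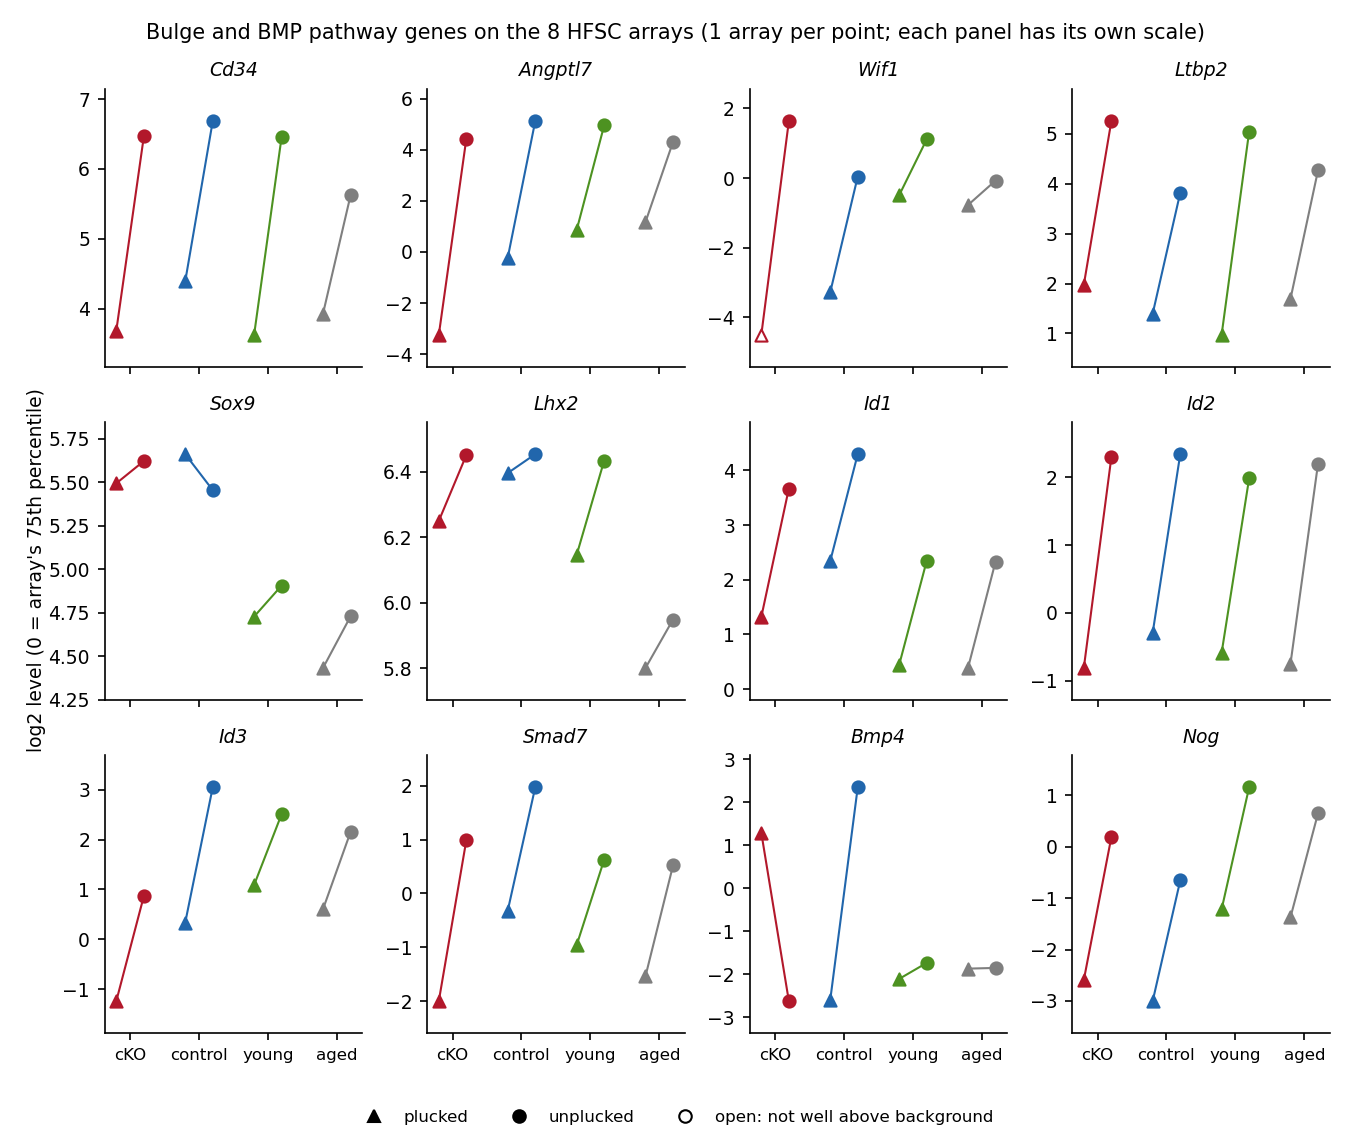
Levels of 6 bulge genes and 6 BMP pathway genes on the 8 HFSC arrays, as log2 relative to the array's 75th percentile, with triangles for plucked and circles for unplucked cells and open symbols where the probe was not well above background. Each panel has its own scale, so levels are compared between arrays and not between genes.

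BMP target genes stood lower in plucked cKO cells. BMP ligands act through receptor kinases and SMAD proteins to induce the Id genes, whose products block differentiation factors, and the inhibitory SMADs, which damp the signal. Of 9 kept targets 5 were at least 2-fold lower and 0 at least 2-fold higher, with a median of -2.11. The medians of the same list were -2.30 in controls, -1.42 in young mice and -1.81 in aged mice.

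Id2 was at -0.81 in plucked and 2.29 in unplucked cKO cells, an 8.60-fold difference. Its plucked levels in the other pairs were -0.29, -0.59 and -0.75 in control, young and aged mice, against unplucked levels of 2.34, 1.98 and 2.20. Id2 fell over the 4 pairs by 2.82 ± 0.24 (SE; limma adjusted p = 0.045). Id1 was 5.10-fold lower (1.32 against 3.67) and Id3 4.31-fold lower (-1.24 against 0.87) in plucked cKO cells. Smad7, an inhibitory SMAD, was 7.97-fold lower (-2.00 against 0.99), and Hey1, a transcriptional repressor, 4.83-fold lower (-1.26 against 1.02). Id4, another Id gene, was at 1.20 and 1.06 in plucked and unplucked cKO cells. Msx2, a homeobox gene, was at 2.47 in plucked and 1.78 in unplucked cKO cells, while its plucked level was the lower one in each of the other 3 pairs.

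Among the ligands and antagonists, Bmp4 had the highest estimate of the cKO plucking difference minus that of the other pairs among named genes bright on all 8 arrays. Its level was 1.29 in plucked and -2.62 in unplucked cKO cells, a 15.1-fold difference. In controls Bmp4 was at -2.61 in plucked and 2.35 in unplucked cells, and in young and aged mice the plucked levels of -2.11 and -1.87 lay near the unplucked levels of -1.74 and -1.85. The limma estimate of the difference was 5.70, with an adjusted p of 0.632. Bmp2 was 6.27-fold lower in plucked cKO cells (-3.21 against -0.56) and Bmp7 3.83-fold higher (-0.67 against -2.61). Nog, which encodes the BMP antagonist noggin, was 6.87-fold lower (-2.59 against 0.19) and fell over the 4 pairs by 2.38 ± 0.25 (SE; limma adjusted p = 0.045). Of the 15 kept genes of this list 3 were at least 2-fold higher and 3 at least 2-fold lower, near the shares of all genes.

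Hair germ and Hedgehog genes were higher in part. Of 25 kept genes 11 were at least 2-fold higher and 2 at least 2-fold lower in plucked cKO cells, or 7 and 2 by their bounds. Gli1, a target and effector of Hedgehog signalling, was 2.71-fold higher in plucked cKO cells (3.50 against 2.06) and had plucked levels above unplucked ones in all 4 pairs. Ptch1, the Hedgehog receptor and also a target, was at 3.03 and 1.86. Krt17, a keratin of the activated outer root sheath, was 2.45-fold higher (6.86 against 5.57). Dlx3, a homeobox factor of hair differentiation, was 6.45-fold lower (-0.60 against 2.08). Shh, the ligand, was not well above background on either cKO array.

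Wnt pathway genes showed no common direction, with 5 of 29 kept genes at least 2-fold higher and 5 at least 2-fold lower (2 and 5 by their bounds) and a median of -0.05. Axin2, a target of beta-catenin, was at -0.20 in plucked and 1.02 in unplucked cKO cells, and was lower after plucking in all 4 pairs. Fzd9, a Wnt receptor, was 12.5-fold lower in plucked cKO cells (-3.13 against 0.52) and fell over the 4 pairs by 4.77 ± 0.54 (SE; limma adjusted p = 0.0485). Dact1, an intracellular Wnt modulator, was at least 64.0-fold lower in plucked cKO cells. Lef1, a partner of beta-catenin in the hair germ, was not well above background on either cKO array.

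Hemidesmosome and basement membrane genes, among which COL17A1 acts, were near the background shares, with 4 of 24 at least 2-fold higher (2 by their bounds) and 5 at least 2-fold lower in plucked cKO cells. Lamb1, a laminin chain, was at least 16.0-fold higher, and Hspg2, which encodes perlecan, 3.63-fold higher. Dst, which encodes the plakin BPAG1 of the hemidesmosome plaque, was 2.50-fold lower (4.87 against 6.20), and Cd151, a tetraspanin that binds laminin-receptor integrins, 3.05-fold lower. Col4a2, a basement membrane collagen chain, was at -0.20 in plucked and 1.70 in unplucked cKO cells, and its plucked level was the higher one in the other 3 pairs.

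**Figure D4:**
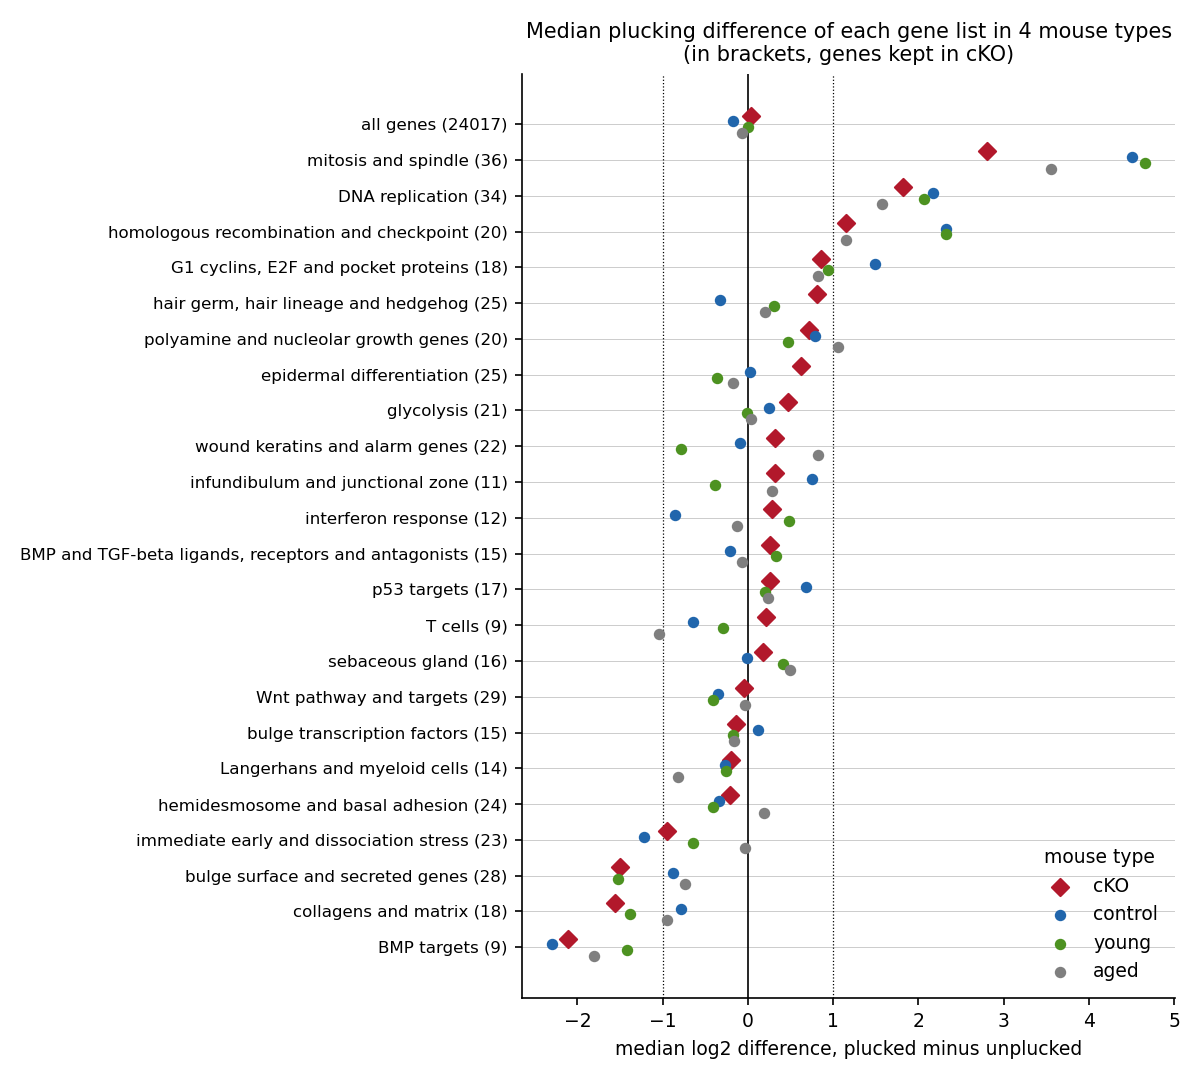
Median plucked minus unplucked log2 difference of each gene list with at least 8 kept genes, in cKO (red diamonds), control (blue), young (green) and aged (grey) mice. Mitosis and DNA replication have the highest medians and BMP targets the lowest in cKO mice, and the cKO value for mitosis lies left of the other 3.

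Epidermal differentiation genes differed between the pairs in both their plucked and their unplucked levels. Over all 32 genes of the list, the median level was 0.96 in plucked and -1.37 in unplucked cKO cells. It was 0.44 and -0.87 in plucked and unplucked controls, 0.14 and 0.01 in young mice and 1.02 and 0.95 in aged mice. Of 25 kept genes 10 were at least 2-fold higher and 3 at least 2-fold lower in plucked cKO cells, with a median difference of 0.62. Of the 18 bright on both arrays 5 were higher and 3 lower, with a median of 0.29. The median differences were 0.03 in controls, -0.36 in young mice and -0.18 in aged mice. No gene of this list rose or fell over the 4 pairs in limma. An unadjusted p under 0.05 was reached by 9 of the 28 tested, where 17.6% of all genes reached it.

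Flg, which encodes the cornified layer protein filaggrin, was at 4.25 in plucked and -0.31 in unplucked cKO cells, a 23.6-fold difference (probe on mm9, chr3:93083694-93083753, plus strand), and 2 further probes differed by 1.89 and 2.40. In the other pairs Flg was at 2.81 and 1.52 in plucked and unplucked controls, at 6.25 and 3.93 in young mice and at 5.08 and 2.38 in aged mice. Sprr1a, a cornified envelope protein, reached 1.52 in plucked cKO cells and was not well above background in unplucked ones (at least 23.0-fold higher), whereas in controls it was at -0.08 and -2.43, in young mice at -0.39 and -0.53 and in aged mice at 1.37 and 0.54. Ivl, which encodes involucrin, was at least 13.5-fold higher in plucked cKO cells, with another probe at 4.01, and lay between -1.95 and -0.78 on the 6 arrays of the other mice.

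Krt1, the suprabasal keratin gene, stood at 2.90 in plucked and -0.56 in unplucked cKO cells, while its partner Krt10 was level at 3.02 and 3.09. Zfp750, an epidermal differentiation factor, was 6.10-fold higher. The members that stood lower were Klf4 (3.67-fold), Tgm1 (2.33-fold) and Calml3 (2.19-fold), and Klf4 was lower after plucking in all 4 pairs. Of the 18 differentiation genes bright on all 4 unplucked arrays, the cKO array was the lowest for 10 (55.6%), against 23.7% of all genes, and the highest for 1. On the plucked and unplucked cKO arrays 25 and 18 genes of the list were well above background, against 25 and 25 in controls, 28 and 27 in young mice and 28 and 29 in aged mice. The unplucked cKO array also had the smallest share of bright spots, and its part in these values was not tested.

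**Figure D5:**
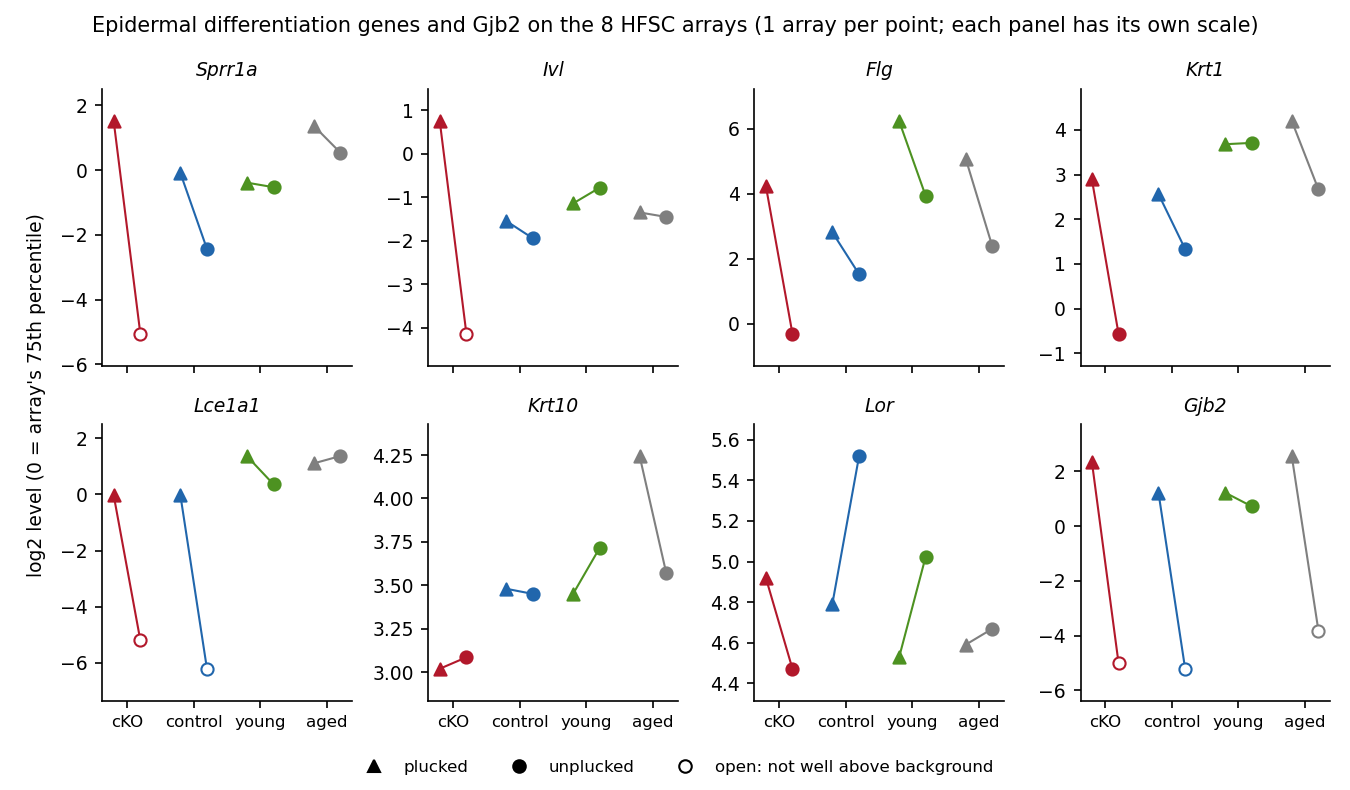
Levels of epidermal differentiation genes and of Gjb2, a connexin gene outside that list, on the 8 HFSC arrays, as log2 relative to the array's 75th percentile. Triangles are plucked and circles unplucked cells, with open symbols where the probe was not well above background. Sprr1a, Ivl, Flg and Krt1 have their lowest value in unplucked cKO cells.

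Wound keratin and alarm genes had no common direction. Of 22 kept wound genes 9 were at least 2-fold higher and 5 at least 2-fold lower in plucked cKO cells, or 4 and 5 by their bounds. Krt16, a wound-induced keratin, was at least 10.4-fold higher, whereas Krt6a, its usual partner, was 2.46-fold lower (1.02 against 2.32). Plau, the urokinase plasminogen activator, was 5.73-fold lower (0.29 against 2.81). Itga5, the fibronectin receptor chain, was at least 11.1-fold lower.

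Marker genes of other cells the gate could have let through were also read. Of 9 kept T cell genes 4 were at least 2-fold higher in plucked cKO cells, 2 by their bounds, and 0 lower, and the summed linear level of the list relative to the 75th percentile was 9.13 in plucked and 6.80 in unplucked cKO cells. Thy1, a surface glycoprotein of T cells and fibroblasts, was at least 17.9-fold higher, while Cd3d and Cd8a were not well above background on either cKO array. The Langerhans and myeloid list summed to 267 in plucked and 334 in unplucked cKO cells, with 6 of 14 higher (2 by their bounds) and 3 lower. Cd74, the invariant chain of MHC class II, was at least 17.6-fold higher, H2-Aa, an MHC class II chain, was 5.65-fold lower, and Cd207, which encodes langerin, was not well above background. Melanocyte genes summed to 2.71 and 6.65, fibroblast genes to 37.4 and 49.4 and endothelial genes to 2.89 and 3.30 in plucked and unplucked cKO cells. Smooth muscle genes summed to 4.93 and 3.75, erythroid and muscle genes to 1.05 and 5.41 and Merkel cell genes to 0.955 and 1.03. Such a sum weighs the brightest members most. Of 6 kept melanocyte genes 2 were at least 2-fold higher (1 by its bound) and 1, Mitf, at least 2-fold lower. Of 10 fibroblast genes 6 were kept and 4 were bright on both cKO arrays. Of 8 endothelial genes 2 were kept and 2 bright on both. Pdgfra, Lum, Pecam1 and Cdh5, members of these lists picked after their values were seen, were not well above background on either cKO array. Mitf, the melanocyte factor, which other cells also express, was 6.22-fold lower in plucked cKO cells (-0.33 against 2.30) and fell over the 4 pairs by 2.84 ± 0.23 (SE; limma adjusted p = 0.0443).

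Outside the lists, the highest differences among named genes bright on both cKO arrays were 48.0-fold for Dio2, which activates thyroid hormone, 45.2-fold for Susd2, a membrane protein, and 37.9-fold for Rrs1, a factor of ribosome assembly. Dio2 was at 3.56 in plucked and -2.02 in unplucked cKO cells, and was higher after plucking in the other 3 pairs too. Susd2 was at 2.64 and -2.86 in the cKO pair, against 1.88 and 2.88 in plucked and unplucked controls, and was lower after plucking in all 3 other pairs. Rrs1 was at 3.27 and -1.97 in the cKO pair, against 3.37 and 3.82 in controls. For Susd2 and Rrs1 the unplucked cKO array was thus the low one. Srd5a1, a steroid 5-alpha reductase, was 34.1-fold higher (2.23 against -2.86). Ttc12, Msto1, Serpinf1, Tmem106c and Gask1b were 19.1-fold to 26.7-fold higher, although another probe of Serpinf1 differed by -0.23.

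Below Angptl7, the lowest differences were 67.9-fold for Stk36, a kinase linked to cilia, and 52.6-fold for Fignl2. Fignl2 was at -1.18 in plucked and 4.54 in unplucked cKO cells, while in the other pairs its plucked levels ran from 1.14 to 3.13 and its unplucked levels from 2.62 to 3.14. Rnf41 was 45.2-fold lower by its brightest probe, but another probe differed by -0.02. Klf2, a shear-stress and quiescence factor, was 42.4-fold lower (-3.72 against 1.68) and was lower after plucking in all 4 pairs. Il34, a ligand of the CSF1 receptor made by keratinocytes, was 41.6-fold lower (-2.02 against 3.36). Ndrg1, a hypoxia-responsive gene, was 37.8-fold lower (-2.79 against 2.45), and Nr3c2, the mineralocorticoid receptor, 36.0-fold lower. Tmem255a and Wfdc16 were 43.7-fold and 36.3-fold lower.

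Among genes dim in unplucked cKO cells, Gjb2 and Gjb6, which encode the connexins 26 and 30 of activated keratinocytes, had bounds of at least 41.0-fold and 31.9-fold higher. Gjb2 was at 2.36 in plucked cKO cells and at 1.22, 1.22 and 2.56 in plucked control, young and aged cells, and of the unplucked arrays only the young one (0.72) was well above background. Gjb6 was at 1.99 in plucked cKO cells, against plucked levels of 1.31, 0.33 and 1.09 in control, young and aged mice. Uck2, a uridine kinase, and Nrarp, a target and inhibitor of Notch, had bounds of at least 38.8-fold and 33.6-fold higher. Of the genes dim in plucked cKO cells, Gsdmcl1, Sorbs2 and Coa4 had bounds of at least 51.0-fold to 52.6-fold lower.

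Across genes, the cKO plucking difference resembled that of the other pairs only in part. Over 16588 genes bright on all 8 arrays its Pearson correlation was 0.434 with the young pair, 0.342 with the control pair and 0.337 with the aged pair. These are descriptions across genes, which are not replicates, and the 4 pairs share no array. The other 3 pairs correlated with each other at 0.394 to 0.428. The SD of the differences over genes bright on both arrays was 1.16 in cKO mice, 1.26 in controls, 0.895 in young mice and 0.963 in aged mice.

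Among these 16588 genes, 14.0% were at least 2-fold higher and 14.6% at least 2-fold lower in plucked cKO cells. The shares were 16.5% and 15.8% in controls, 8.42% and 8.48% in young mice and 11.6% and 10.6% in aged mice.

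Of the 2325 genes at least 2-fold higher in plucked cKO cells, 1006 (43.3%) were also at least 2-fold higher in controls, 666 (28.6%) in young mice and 772 (33.2%) in aged mice. Seen from the other lists, these made up 36.8%, 47.7% and 40.3% of the genes at least 2-fold higher in control, young and aged mice. All 3 other pairs shared 299 of the 2325 (12.9%), and 896 (38.5%) were past 2-fold in this direction in cKO mice alone. With 1 array a side this is a count and not a call of genotype. Of the 2422 genes at least 2-fold lower, 879 (36.3%) were shared with controls, 692 (28.6%) with young and 593 (24.5%) with aged mice, or 33.5%, 49.2% and 33.8% of those lists. All 3 others shared 214 (8.84%), and 1074 (44.3%) were past 2-fold in this direction in cKO mice alone. Matching counts for control, young or aged mice alone were not made, so the cKO-only shares have no reference.

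The 2-fold line itself cut through a continuous range, with the nearest differences at 1.00008 inside and 0.999726 outside it among higher genes, and at -1.00037 inside and -0.999873 outside it among lower genes. Probes of the same gene did not always give the same answer. Of 2443 genes past 2-fold that had further probes, 1521 (62.3%) had all their kept probes differ in the same direction, and the median of the largest gap between probes was 1.26 over the 7139 kept genes with at least 1 further kept probe.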

How the data were processed

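HFSC RNA (1 to 10 ng) was amplified, labelled with Cy3 and hybridised to Agilent 1-colour arrays, per the labels' protocols. The deposited scanner files hold the authors' intensity values per spot, background-corrected by Feature Extraction per the file headers, with a call for spots well above background. The value table deposited beside them holds log2 values whose probe medians are 0; set against the scanner values of each array, centred in the same way, it correlated at 0.99988 or more, and column medians ran from -0.2 to 0.17. The authors' steps behind its scaling are not given in the sources used here, and it served as an alternative only.

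From the intensities, log2 of the processed signal minus the 75th percentile of the array was computed over 59305 spots. Control spots were left out, as were outlier spots, which left 10 probes without a value on the plucked cKO array; these 10 entered no cKO difference. Spots were averaged to 55681 probes, of which 28020 were named through accessions in RefSeq and 27661 kept the file's name, and each gene was read from the probe with the highest mean level (11198 of 34763 genes had several). Slide 2 held the cKO and control pairs, slide 1 the young and aged ones.

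The cKO plucking difference has 1 array a side and no test. Fits over the 8 HFSC arrays used limma on genes well above background on at least 2 of them, with mouse type and plucking as terms, a further fit having a term for the cKO plucking difference as well, and Benjamini-Hochberg adjustment over all 25428 genes. The fits were also run on simulated data with planted differences. How many of these were recovered is not given here, so that run does not bear on how the counts are read. The labels do not say whether samples come from separate animals, so p-values reflect the spread of these samples alone, and that spread may be technical, and the number of arrays limits the precision. Alternatives were another background correction and scaling, the mean over probes, other filters on dim genes, a 4-fold threshold, the authors' value table, each pair left out, and slide.

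The members and lists were chosen with earlier results of these data known. Genes named were the 10 highest and 10 lowest bright on both cKO arrays, 5 highest and 5 lowest by their bound, 6 highest and 6 lowest cKO-minus-others estimates among genes bright on all 8 arrays, up to 4 members per list farthest from 0 with any past 2-fold against the list's median, and 29 genes fixed by name. Aurka, Ndc80, Nuf2, Ect2, Hmmr, Mcm10, Ccn2, Id4, Msx2, Ptch1, Dst, Cd151, Zfp750, Aspn, Cd3d, Cd8a, Cd207, Lum, Pdgfra, Pecam1 and Cdh5 lie outside this rule and were chosen after their values were seen. Used were R 4.3.3, limma 3.58.1, Python 3.11.15, pandas 2.3.3, numpy 2.4.6 and matplotlib 3.10.9.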

Additional observations from a re-analysis of the deposited data

Results flagged for a closer look

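Of 117 named genes well above background on all 8 HFSC arrays, 10 were past 2-fold in the cKO pair and had the opposite sign in all 3 other pairs. By the same rule 264 of all 16588 such genes (1.59%) did so, and since many named genes were chosen for large cKO differences (101 of the 117 were past 2-fold), the shares of named and of all genes are not comparable. The sign had to hold by more than the log2 spread between repeated spots, 0.105, and the difference was judged by sign alone. In the limma fit of the cKO plucking difference minus that of the other pairs, 0 of 25428 genes passed at an adjusted p of 0.05, while 2072 had an unadjusted p under 0.05. Differences are plucked minus unplucked on the log2 scale.

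Among genes of division and growth, the cKO difference was -1.10 for Rfc3 of the clamp loader, -1.60 for the cyclin gene Ccne1, -1.78 for the checkpoint kinase gene Chek2 and -1.18 for Srm, the spermidine synthase gene. All 4 had positive differences in control, young and aged mice. A further probe of Srm differed by 0.65 in the cKO pair. Srm was at 3.42 in plucked and 4.59 in unplucked cKO cells, and at 4.31, 3.87 and 3.16 in plucked control, young and aged cells against 1.43 to 2.60 in their unplucked cells, so the unplucked cKO array was the high one.

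The basement membrane gene Col4a2 differed by -1.90 in the cKO pair and Rtn4ip1, a mitochondrial oxidoreductase gene, by -2.91, with positive differences in the other 3 pairs. In the other direction stood Lck, a T cell kinase gene, at 1.62, Susd2 at 5.50, Telo2, a factor for the stability of PIKK kinases, at 2.41 and the lysosomal sulfatase gene Arsa at 3.01, each with negative differences in the other 3 pairs.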

How the results depend on the processing

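No paired analysis was possible by replicate number, because each group holds 1 array; the fit over the 4 pairs sets plucked against unplucked within mouse type. With background correction by normexp and quantile scaling, the plucked cKO array had 2372 genes at least 2-fold higher and 2219 at least 2-fold lower. At 4-fold these counts were 2126 and 1977, with 14 of the DNA replication and 9 of the bulge surface genes. With genes bright on both cKO arrays only, 2531 were higher, 5 of them differentiation genes, and with no filter on dim genes 10361 were lower. Array median scaling, quantile scaling and the deposited value table kept all 62 counts within 1.5 times. Array median scaling shifts every cKO difference by the same 0.04, and the deposited table closely repeats the scanner values. Neither could change the counts much, so their agreement is no separate support. The median of all genes moved by at most 0.05 and higher genes made up 51.7% to 58.4% of those past 2-fold (56.5% as reported). With the mean over probes, Nid1 changed sign to -0.13 and Polr1b to 0.11. Among genes named by the rule and past 2-fold, no other changed sign in the alternatives run on named genes. Smaller differences, and genes named outside the rule, were not checked for a change of sign. Of 1015 values of genes named by the rule, 358 moved by more than 0.105, the log2 spread between repeated spots. These values pool 5 alternatives over 203 genes. With normexp and quantile scaling 183 of the 203 moved, with quantile scaling 123 and with the mean over probes 52. Array median scaling and the deposited table left all 203 within 0.105.

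For plucking over the 4 pairs, the numbers that rose and fell were 725 and 386 with normexp, 204 and 69 with the mean over probes, 413 and 280 for genes bright on all 8 arrays and 18 and 4 with no filter. They were 0 to 0 with any pair left out and 0 and 0 on slide 2 alone, where 2901 genes had an unadjusted p under 0.05 and fewer arrays entered. The cause of the other changes was not tested. The cKO-minus-others term gave 0 genes under each alternative run, with 1249 to 3104 at an unadjusted p under 0.05. Signal over background limits what can be said of genes dim on the unplucked cKO array.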

Other observations

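Collagen and matrix genes stood lower in plucked cKO cells. Of 18 kept genes 10 were at least 2-fold lower and 3 at least 2-fold higher, with a median of -1.56, against -0.79 in controls, -1.38 in young mice and -0.95 in aged mice. Col8a2, a short-chain collagen, was 18.0-fold lower in plucked cKO cells (1.34 against 5.51), and fell over the 4 pairs by 3.46 ± 0.35 (SE; limma adjusted p = 0.045). Aspn, which encodes asporin, a matrix proteoglycan, was 14.2-fold lower (-0.70 against 3.13) and fell by 4.08 ± 0.39 (limma adjusted p = 0.045). Col1a2 was 4.77-fold lower, and Thbs2, a thrombospondin, at least 9.83-fold lower. Col27a1, a fibrillar collagen, went the other way, at 1.05 in plucked cKO cells and not well above background in unplucked ones (at least 16.6-fold higher), and rose over the 4 pairs by 5.76 ± 0.54 (limma adjusted p = 0.045).

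Immediate early genes, which answer growth signals and also tissue dissociation, were lower for 10 of 23 and higher for 3 in plucked cKO cells, with a median of -0.95. Atf3, a stress-induced factor, was at least 31.4-fold lower and Ccn1, a matricellular gene, 11.2-fold lower (1.48 against 4.96). Egr3 was 13.0-fold higher (2.09 against -1.61), while Fos stood at 1.07 and 0.95 and Egr1 at 6.29 and 5.86 in plucked and unplucked cKO cells.

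Metabolic and growth genes were mostly within 2-fold. Among 21 kept glycolysis genes, 7 were past 2-fold on the higher side and 1 on the lower, with Pgk1 at 5.60-fold and Eno1 at 4.25-fold higher and Pdk1, which diverts pyruvate from mitochondria, 2.80-fold lower. Of 20 polyamine and nucleolar genes 6 were higher and 2 lower, with Nolc1, a nucleolar protein, 5.55-fold higher. Of 11 kept genes of the infundibulum and junctional zone 3 were higher and 3 lower. Among them Aqp3, a water and glycerol channel, was 6.24-fold lower (5.76 against 8.41) and lower after plucking in all 4 pairs. Of 16 sebaceous genes 5 were higher (2 by their bounds) and 3 lower, Mgst1, a glutathione transferase, by 16.7-fold. Of 12 kept interferon genes 5 were higher (4 by their bounds) and 3 lower. Among them Ifi27l2a was at least 2.70-fold and Tap1, a peptide transporter of antigen presentation, at least 1.89-fold higher, Ifit3b at least 6.64-fold and Oas1a at least 2.97-fold lower, and Irf1, an interferon regulatory factor, 2.32-fold lower. These counts are to be read against the 22.3% and 17.2% of all genes.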
